A study of Rattus norvegicus with 4 samples.

Results

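The MCM genes encode the minichromosome maintenance proteins of DNA replication, and 8 of the 15731 genes with deposited values were chosen by their symbols: Mcm2, Mcm3, Mcm4, Mcm5, Mcm6, Mcm7, Mcm8 and Mcm10. In dividing cells the proteins of Mcm2 to Mcm7 assemble into a ring that is loaded onto replication origins in G1 phase and becomes the motor of the helicase that unwinds DNA in S phase. Transcription of these genes is known to rise before S phase under E2F factors, and heart muscle cells largely leave the cell cycle soon after birth. Mcm8 encodes a related helicase that acts with Mcm9 in recombination repair, and Mcm10 encodes an unrelated DNA-binding protein that helps the loaded helicase to start. An intron of Mcm7 also carries the microRNAs of the miR-106b-25 cluster, so that host gene and microRNAs arise from a shared primary transcript.

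Ventricular cardiomyocytes of wild type Wistar rats, labelled post natal day 1 (the treatment protocol says day 0), were cultured and transfected 24 h after plating with a microRNA mimic by Lipofectamine RNAiMAX. The mimics were those of human miR-106b-5p, of human miR-93-5p, of human miR-25-3p and, as control, of the worm microRNA cel-miR-67. The labels give the dose as 25 nM in the treatment protocol and as 25 mM in the extract protocol, and RNA was taken after 72 h. Strain, genotype, age and reagent are the same in all 4 libraries, and the labels differ only in the mimic. Each mimic gave 1 library, so no difference below has a replicate check and no p-value is given. The cells were plated for a short time to remove attached cells before culture, and how many animals stand behind a culture is not given in the sources used here.

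Levels are in RPKM, the reads of a gene scaled to the length of its exons and to a size of the library. The whole reads behind these values were recovered from their steps, and between 15175185 and 18797234 reads per library lay on listed genes. Intervals are 95% exact intervals from these reads, cover counting error only and leave out any difference between cultures. A gene was tested where its RPKM was above 1.0 in both libraries compared, which all 8 MCM genes passed in every comparison, and it was counted as higher or lower where the ratio of RPKM values passed 1.3-fold. Where 4 levels are listed, their order is cel-miR-67, miR-106b, miR-93, miR-25.

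The mature rat sequences of the cluster are shown because the 3 mimics fall into 2 groups by their seed, the bases 2 to 8 (in capitals) that pair with target RNAs. They were taken from RefSeq on GRCr8, where Mcm7 spans chr12:22155921-22163320 on the minus strand and the 3 microRNAs lie inside this span. The mimics themselves carried the human microRNAs.
rno-miR-106b-5p, chr12:22157103-22157123: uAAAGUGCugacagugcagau
rno-miR-93-5p, chr12:22156894-22156916: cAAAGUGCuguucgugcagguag
rno-miR-25-3p, chr12:22156652-22156673: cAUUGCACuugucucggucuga
The seed AAAGUGC is shared by miR-106b and miR-93, and miR-25 has the seed AUUGCAC. Target sites of these seeds in the MCM transcripts were not analysed here.

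The other MCM genes lie apart from Mcm7 on GRCr8. Mcm2 is at chr4:122903679-122918205, Mcm3 at chr9:30715602-30733746, Mcm4 at chr11:98762599-98776300, Mcm5 at chr19:13488813-13510131 and Mcm6 at chr13:42379161-42404352. Mcm8 is at chr3:140539590-140569891 and Mcm10 at chr17:78172049-78197644. The deposited values were made on Rnor 6.0, whose coordinates were not used here.

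In the control library the ring genes spanned a range of 2.22-fold in RNA level. Mcm4 had the highest level, at 28.4 RPKM (27.2 to 29.7). Mcm7 at 23.2 RPKM, Mcm6 at 22.2 and Mcm3 at 22.0 followed, and neighbours among these 3 did not differ beyond counting error, with ratios of 1.04 (0.968 to 1.13) and 1.01 (0.925 to 1.11). Mcm2 at 12.9 RPKM and Mcm5 at 12.8 were lower, with a ratio of 1.01 (0.923 to 1.10) between them. Mcm8 at 3.12 RPKM and Mcm10 at 3.10 were the lowest and did not differ beyond counting error either, with a ratio of 1.01 (0.849 to 1.19). Mcm4 was the highest and Mcm5 the lowest ring gene in all 4 libraries, and the range between them was widest with miR-25, at 3.83-fold, and 2.86-fold and 2.52-fold with miR-106b and miR-93.

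**Figure D1:**
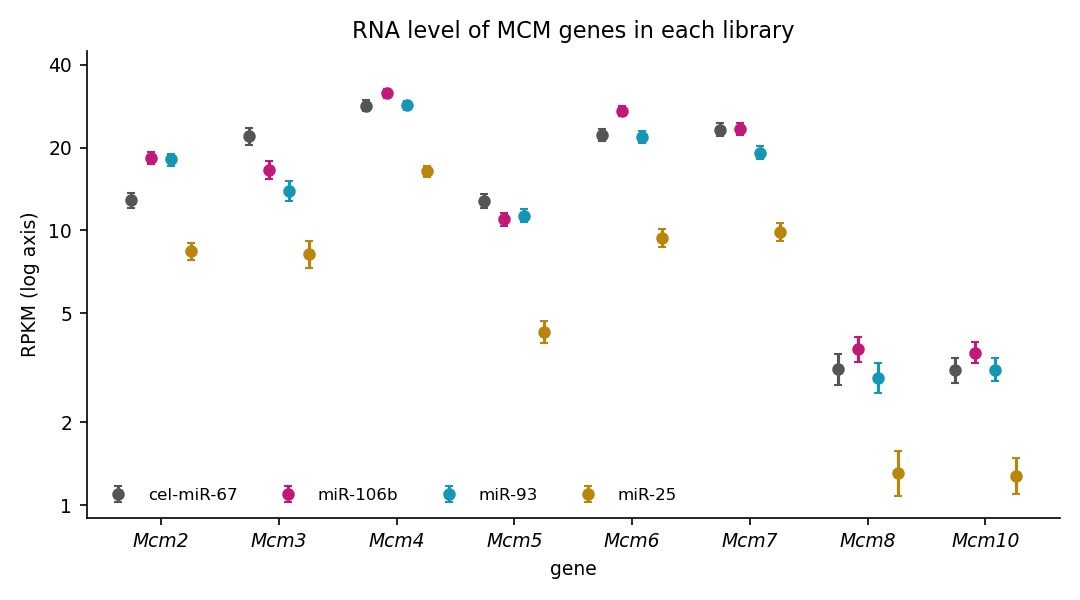
RPKM of each MCM gene (log axis) in the 4 libraries, 1 point per library; bars are 95% exact Poisson intervals of the reads and cover counting error only. In the miR-25 library each gene has its lowest level, with an interval that does not overlap those of the other 3 libraries.

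The miR-25 library had the lowest level of all 8 MCM genes. Summed over Mcm2 to Mcm7 the levels were 122, 128, 113 and 56.5 RPKM, so that the ring genes together stood at 0.465 of the control level with miR-25. Past 1.3-fold, 8 of 8 MCM genes were lower and 0 were higher, where 22.6% of the 11198 genes tested were lower and 19.3% higher. The median log2 fold change of the 8 genes was -1.25, against -0.01 for all genes tested. A smaller share of cells expressing these genes and less RNA per cell cannot be told apart in bulk RNA.

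**Figure D2:**
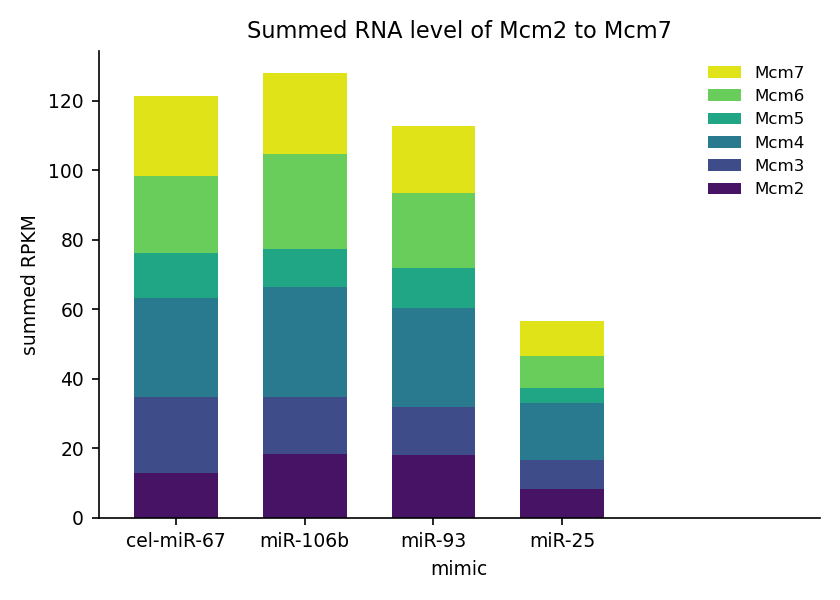
Summed RPKM of Mcm2 to Mcm7 in the 4 libraries, stacked by gene; there is 1 library per mimic. The stacks of cel-miR-67, miR-106b and miR-93 reach 122, 128 and 113, and the miR-25 stack reaches 56.5.

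Cell type markers moved in the same library. Of 9 cardiomyocyte markers found, such as Myl2 and Tnnt2 of the sarcomere, 8 were lower and 1 higher past 1.3-fold with miR-25. Among all genes tested, 22.6% were lower and 19.3% higher. The summed levels of these markers were 12867, 12985, 10635 and 6908 RPKM. Tnni3 was lower at 351, 543, 495 and 15.9 RPKM, and the higher marker was Nkx2-5 at 29.2, 36.7, 42.1 and 53.7. Of 9 fibroblast markers 7 were lower and 1 higher, with sums of 835, 648, 751 and 334 RPKM. The higher one was Lum, at 5.52, 2.74, 3.25 and 10.1 RPKM. All 4 smooth muscle markers were higher with miR-25, with sums of 745, 686, 583 and 2051 RPKM. The sums of 6 endothelial markers lay between 5.39 and 8.04 RPKM and those of 7 macrophage markers between 12.9 and 19.1, both lowest with miR-25. Single markers went other ways: Kdr of the endothelium had 1.26, 1.73, 2.18 and 2.29 RPKM, and Lyz2 of macrophages had 6.93, 2.97, 3.69 and 6.57. No marker found was at 0 in any library, but Emcn had 1 read and Vwf 18 reads with miR-25, and smooth muscle genes such as Acta2 and Tagln are also known in young heart muscle cells and activated fibroblasts. The part of these shifts in the levels of the MCM genes was not tested.

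Within the ring the difference varied by subunit. Mcm5, whose protein sits with that of Mcm2 at the gate through which DNA enters, had 12.8, 11.0, 11.3 and 4.28 RPKM. Its level was lowest with miR-25 and, within 1.3-fold, slightly below the control with miR-106b and miR-93. Its log2 fold change with miR-25 of -1.58 (-1.74 to -1.42) was the furthest from 0 of the 8. Mcm3, whose protein is a neighbour of Mcm5 in the ring, had 22.0, 16.6, 13.9 and 8.18 RPKM. Each mimic library was below the control, and with miR-25 the log2 fold change was -1.42 (-1.62 to -1.23).

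Mcm6 had 22.2, 27.2, 21.8 and 9.38 RPKM, highest with miR-106b and lowest with miR-25. Its log2 fold change with miR-25 was -1.24 (-1.37 to -1.12). Mcm4, whose protein forms a stable subcomplex with those of Mcm6 and Mcm7, had 28.4, 31.5, 28.5 and 16.4 RPKM and a log2 fold change of -0.80 (-0.89 to -0.70). Mcm2, whose protein also binds histones, had 12.9, 18.3, 18.1 and 8.39 RPKM. The control level of Mcm2 lay between those of the other mimics and that of miR-25, and its log2 fold change with miR-25 was nearest to 0 of the 8, at -0.62 (-0.76 to -0.48). The 6 ring genes thus covered 0.96 on the log2 scale.

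Outside the ring, Mcm8 had 3.12, 3.70, 2.91 and 1.31 RPKM, and Mcm10 had 3.10, 3.59, 3.11 and 1.28. Both were lowest with miR-25, with log2 fold changes of -1.25 (-1.59 to -0.92) for Mcm8 and -1.27 (-1.54 to -1.01) for Mcm10. These rest on 115 reads of Mcm8 and 176 of Mcm10 in the miR-25 library, the fewest of the 8. Both were also set against the change of Mcm2 to Mcm7 with their reads summed, which weights longer genes more. Over the control, Mcm8 was at -0.18 (-0.52 to 0.15) and Mcm10 at -0.20 (-0.48 to 0.07) on the log2 scale. With RPKM summed these were -0.15 and -0.17, so over the control neither differed from the ring genes beyond counting error. With miR-25 over miR-106b, Mcm8 was at -0.32 (-0.64 to -0.01) and Mcm10 at -0.31 (-0.56 to -0.05), both below the ring genes. With miR-25 over miR-93 they were at -0.13 (-0.47 to 0.20) and -0.26 (-0.53 to -0.00).

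**Figure D3:**
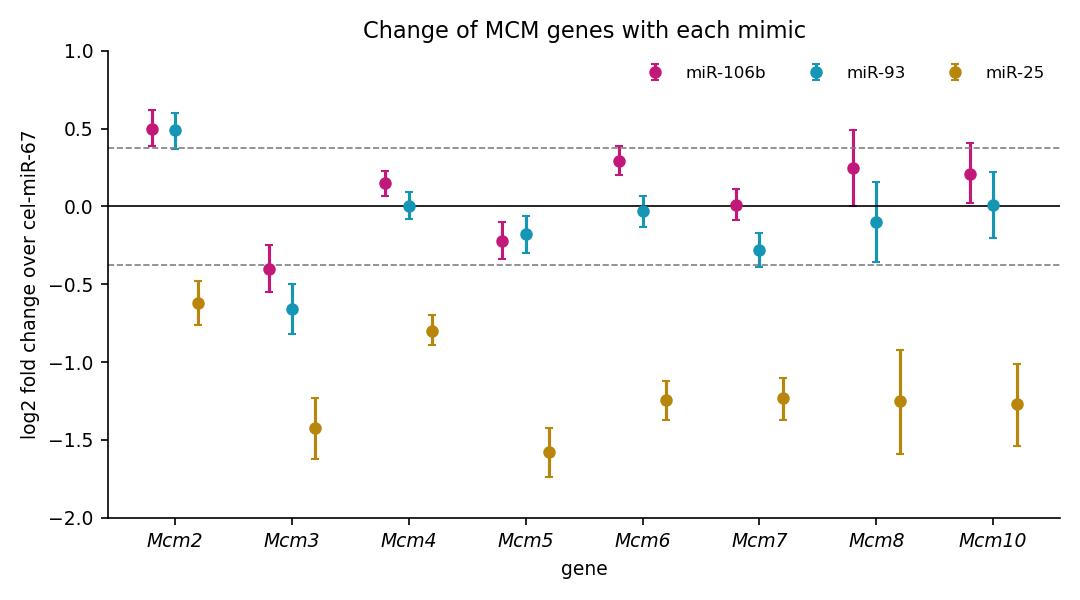
Log2 fold change of each MCM gene over cel-miR-67 for each mimic, 1 library against 1; bars are 95% exact intervals of the reads, and dashed lines mark 1.3-fold. With miR-25 the values run from -1.58 for Mcm5 to -0.62 for Mcm2, and with both other mimics Mcm2 lies above and Mcm3 below the dashed lines.

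The mimics that share a seed left most of the family within 1.3-fold of the control. With miR-106b, Mcm2 was higher and Mcm3 lower, 1 of 8 genes in each direction, where 11.9% of 11296 genes tested were higher and 12.7% lower. With miR-93 the counts fell on the same genes, where 15.1% of 11280 genes tested were higher and 15.6% lower. These shares of 1 in 8 are near the background. The median log2 fold change of the 8 was 0.18 for miR-106b and -0.06 for miR-93, against -0.00 for all genes tested in each, and the miR-93 median was 0.08 when libraries were scaled to the same RPKM sum.

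For Mcm2 the log2 fold change was 0.50 (0.39 to 0.62) under miR-106b and 0.49 (0.37 to 0.60) under miR-93. For Mcm3 it was -0.40 (-0.55 to -0.25) and -0.66 (-0.82 to -0.50). The order of these subunits differed from the control as a result. Mcm3 exceeded Mcm2 by 1.70-fold (1.54 to 1.88) in the control library, whereas Mcm2 was above Mcm3 with miR-106b and miR-93, and their ratio with miR-25 was 1.03 (0.899 to 1.17). Mcm2 made up 10.6% of the summed RPKM of the ring genes in the control library and between 14.3% and 16.0% in the others. The share of Mcm3 was 18.1% in the control library and between 12.4% and 14.5% in the others. The control library thus stood apart from all 3 mimic libraries in these shares, and with 1 control library it cannot be told apart whether the control or the mimics set this.

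Among the other ring genes, Mcm6 was at 0.29 (0.20 to 0.39) with miR-106b and -0.03 (-0.13 to 0.07) with miR-93. Mcm4 was at 0.15 (0.07 to 0.23) and 0.00 (-0.08 to 0.09), and Mcm5 at -0.22 (-0.34 to -0.10) and -0.18 (-0.30 to -0.06). Several of these intervals leave out 0, but every value is within 1.3-fold, and with the same RPKM sum in each library the miR-93 values of Mcm6 and Mcm5 became 0.12 and -0.03. Mcm8 was at 0.25 (0.00 to 0.49) and -0.10 (-0.36 to 0.16), and Mcm10 at 0.21 (0.02 to 0.41) and 0.01 (-0.20 to 0.22).

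**Figure D4:**
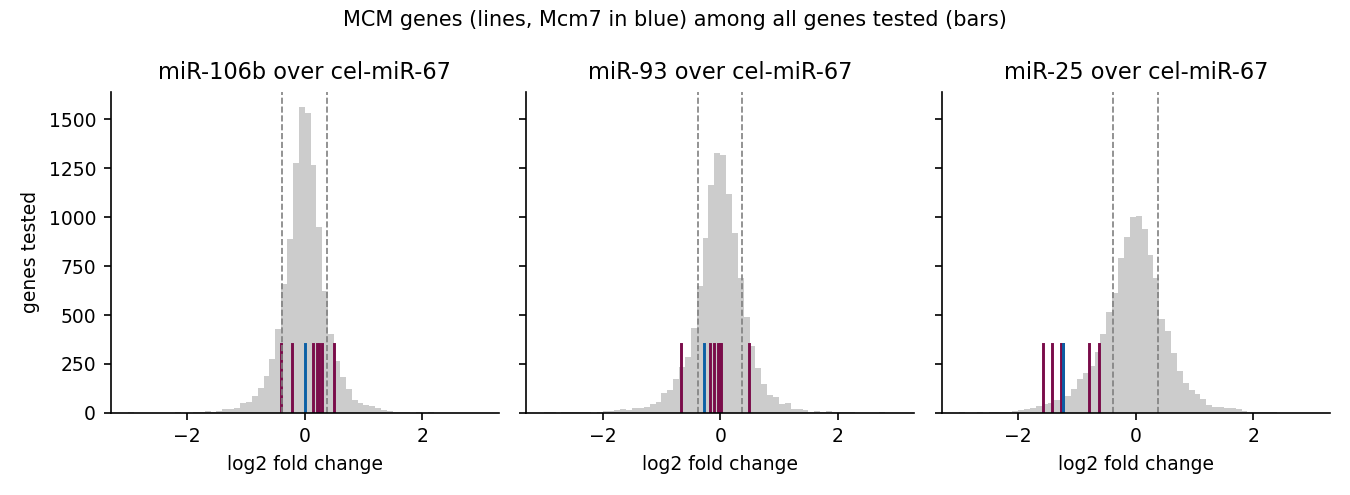
Number of genes tested by log2 fold change over cel-miR-67 for each mimic (grey bars, 0.1 wide, values beyond 3 in either direction in the end bars), with the 8 MCM genes as lines, Mcm7 in blue, and dashed lines at 1.3-fold. With miR-25 all 8 lines lie below the lower dashed line, and with each other mimic 1 line lies beyond each dashed line.

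Mcm7, the host gene of the cluster, had 23.2, 23.4, 19.1 and 9.87 RPKM, from 1307, 1727, 1297 and 668 reads. The level under miR-106b did not differ from the control beyond counting error, that under miR-93 was slightly lower and that under miR-25 was lowest in these 4 libraries. The log2 fold changes were 0.01 (-0.09 to 0.11), -0.28 (-0.39 to -0.17) and -1.23 (-1.37 to -1.10), of which the last passed 1.3-fold. The miR-93 value became -0.13 when libraries were scaled to the same RPKM sum or by listed reads. The microRNAs of the cluster are not rows of the table, so their own levels are not analysed here.

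To compare the host gene with its complex partners, its change was divided by that of the other 5 ring genes with their reads summed. Over the control library the log2 ratio was -0.12 (-0.24 to -0.01) for miR-106b, -0.27 (-0.39 to -0.15) for miR-93 and -0.20 (-0.34 to -0.05) for miR-25, and these 3 values share the control. With RPKM summed in place of reads, which gives each gene the weight of its level per length, the ratios were -0.08, -0.21 and -0.16. If the reads of Mcm3 were double those recovered, the miR-106b ratio was -0.08 (-0.19 to 0.04), so that it did not differ from 0 beyond counting error. Without the control the ratio was -0.07 (-0.21 to 0.07) for miR-25 over miR-106b, 0.08 (-0.07 to 0.22) for miR-25 over miR-93 and -0.15 (-0.26 to -0.03) for miR-93 over miR-106b. The lower ratio of Mcm7 to its partners under miR-25 was therefore seen over the control and not beyond counting error over the other mimics. The level of Mcm7 itself was lower under miR-25 than under either. Its log2 fold change was -1.24 (-1.37 to -1.11) over miR-106b and -0.95 (-1.09 to -0.82) over miR-93. Against single partners under miR-25 over the control, Mcm7 was at -0.61 (-0.81 to -0.42) relative to Mcm2, at 0.35 (0.14 to 0.56) relative to Mcm5 and at 0.01 (-0.18 to 0.20) relative to Mcm6, so that it lay inside the range of the ring genes.

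The same ratio for the other ring genes was looked at after their values were seen. For Mcm4 under miR-25 it was 0.39 (0.28 to 0.51) over cel-miR-67, 0.35 (0.24 to 0.46) over miR-106b and 0.32 (0.21 to 0.43) over miR-93, above its partners against each library. For Mcm5 it was -0.58 (-0.75 to -0.41), -0.20 (-0.37 to -0.03) and -0.43 (-0.60 to -0.26), below its partners against each. Mcm6 was also below its partners against each, at -0.21 (-0.35 to -0.07), -0.44 (-0.57 to -0.30) and -0.24 (-0.38 to -0.10). The ratio of Mcm3 changed sign, from -0.39 (-0.59 to -0.19) over the control to 0.17 (-0.03 to 0.37) and 0.27 (0.06 to 0.48). For Mcm2 it was 0.53 (0.37 to 0.68), 0.07 (-0.07 to 0.21) and -0.11 (-0.25 to 0.03), which left the range of counting error only over the control.

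The nearest 2 genes with deposited values on each side of Mcm7 were compared with it under miR-25. Cops6, a subunit gene of the COP9 signalosome that lies 394 bases away, had 13.3, 14.5, 14.0 and 9.38 RPKM and a log2 fold change of -0.51 (-0.73 to -0.28). Ap4m1, a subunit gene of the AP-4 adaptor that lies 154 bases from the other end, had 6.09, 6.00, 5.97 and 6.65 RPKM and was at 0.13 (-0.15 to 0.41). Zfp113, a zinc finger gene, was at -0.03 (-0.30 to 0.25) and Taf6, a TFIID subunit gene, at 0.26 (0.11 to 0.42). Of these 4, Cops6 was lower past 1.3-fold, where 22.6% of all genes tested were lower, and none was as low as Mcm7. With libraries scaled to the same RPKM sum Cops6 was at -0.27, no longer past 1.3-fold, and Taf6 at 0.50, then past it, and scaling by listed reads gave -0.36 and 0.41. Ap4m1 and Taf6 overlap on GRCr8, and reads of overlapping genes may be shared.

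Comparisons between mimics do not use the control library. With miR-25 over miR-106b, 8 of 8 MCM genes were lower past 1.3-fold, where 23.0% of 11183 genes tested were lower and 22.1% higher. The log2 ratios ran from -1.54 (-1.66 to -1.42) for Mcm6 to -0.94 (-1.03 to -0.85) for Mcm4, with a median of -1.30. With miR-25 over miR-93, 8 of 8 were lower as well, where 23.0% of 11198 genes were lower and 22.1% higher. Here the values ran from -1.40 (-1.56 to -1.24) for Mcm5 to -0.77 (-0.97 to -0.57) for Mcm3, with a median of -1.13. The ring genes covered 0.59 over miR-106b and 0.63 over miR-93 on the log2 scale, less than over cel-miR-67.

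Between the mimics of the same seed, 0 of 8 MCM genes passed 1.3-fold, where 7.30% of 11391 genes tested were higher and 8.21% lower with miR-93 than with miR-106b. Mcm2 at -0.02 (-0.11 to 0.08) and Mcm5 at 0.04 (-0.08 to 0.16) did not differ beyond counting error. The other 6 lay between -0.35 (-0.59 to -0.11) for Mcm8 and -0.14 (-0.22 to -0.07) for Mcm4. Mcm7 was at -0.29 (-0.39 to -0.19) and Mcm6 at -0.32 (-0.41 to -0.23). The median of the 8 was -0.23, against 0.00 for all genes tested, and scaling to the same RPKM sum raises each of these values by 0.11.

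Of 4 other genes that carry the MCM name, 0 passed 1.3-fold with any mimic over cel-miR-67. The background was 22.6% lower and 19.3% higher with miR-25, and 11.9% to 15.6% in each direction with the other mimics. A list of 4 genes is short to set against these shares. Mcmbp, whose protein binds MCM proteins, had 13.8, 17.5, 17.5 and 14.8 RPKM and a log2 fold change of 0.10 (-0.10 to 0.29) with miR-25. Mcm9, the partner of Mcm8, had 2.37, 2.20, 2.07 and 2.07 RPKM and was at -0.19 (-0.41 to 0.03), while Mcm8 was at -1.25 (-1.59 to -0.92). Mcm3ap, an RNA export factor gene, was at -0.01 (-0.12 to 0.09), and Mcmdc2, a meiotic relative, at -0.25 (-0.50 to -0.00).

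The ring is loaded by the origin recognition complex with Cdc6 and Cdt1, and geminin blocks loading. Of 9 genes of this group 8 were tested with miR-25, of which 4 were lower and 1 higher, with a median log2 fold change of -0.54. Among all genes tested with miR-25, 22.6% were lower and 19.3% higher. Cdc6 had 4.07, 4.29, 3.99 and 1.32 RPKM and a log2 fold change of -1.62 (-1.91 to -1.34) with miR-25. Gmnn, the geminin gene, had 12.1, 17.4, 11.0 and 4.27 RPKM and was at 0.52 (0.33 to 0.72) under miR-106b and -1.50 (-1.80 to -1.21) under miR-25. Cdt1 had 1.34, 1.28, 1.42 and 0.459 RPKM, so that it was not tested with miR-25, where it had 28 reads. Orc3, an origin recognition subunit gene, was at 0.22 (0.09 to 0.36). For each other mimic 1 of the 9 genes was higher and 0 were lower. The background was 11.9% higher and 12.7% lower with miR-106b, and 15.1% and 15.6% with miR-93, so 1 of the 9 is near it.

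The loaded ring becomes an active helicase with Cdc45, the GINS complex and further factors. Of 14 genes of this group with a single row, 11 were tested with miR-25. Lower were 10 and higher 0, with a median of -0.83, where 22.6% of all genes tested were lower and 19.3% higher. Gins1, a GINS subunit gene, had 7.21, 9.89, 6.02 and 1.74 RPKM and a log2 fold change of -2.05 (-2.53 to -1.60). Clspn, the claspin gene of the replication checkpoint, was at -1.41 (-1.81 to -1.02), and Tipin, of the fork protection complex, at -0.31 (-0.54 to -0.08). Cdc45 had 0.966, 1.31, 1.12 and 0.264 RPKM, under the limit in both libraries of this comparison. For miR-106b 3 of 12 genes tested were higher and 0 lower, and for miR-93 1 was higher and 0 lower. The background was 11.9% higher and 12.7% lower with miR-106b, and 15.1% and 15.6% with miR-93.

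**Figure D5:**
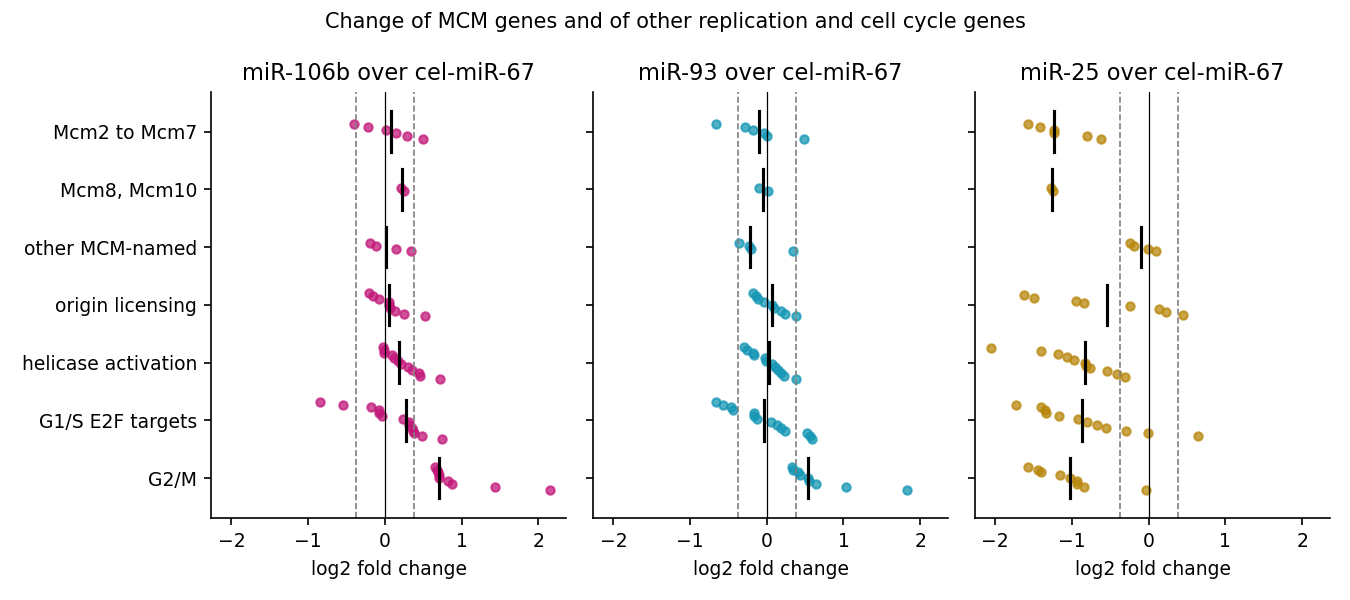
Log2 fold change over cel-miR-67 of the tested genes of each group (points) and the group's median (black bar) for each mimic; dashed lines mark 1.3-fold. With miR-25 the medians are -1.24 for Mcm2 to Mcm7, -0.10 for the other MCM-named genes, -0.54 for origin licensing and -0.83 for helicase activation, and with miR-106b the G2/M genes stand at 0.71 and Mcm2 to Mcm7 at 0.08.

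Genes of other cell cycle phases give the MCM values a frame. With miR-25, 9 of 12 tested E2F target genes of G1/S were lower and 1 higher, with a median of -0.87. Of 9 G2/M genes 8 were lower and 0 higher, with a median of -1.02. The background with miR-25 was 22.6% lower and 19.3% higher. Rrm2, a ribonucleotide reductase subunit gene, had 49.6, 48.3, 36.1 and 15.0 RPKM and was at -1.73 (-1.88 to -1.58) with miR-25. E2f1, which encodes an activator of MCM genes, had 3.63, 2.02, 2.45 and 1.38 RPKM, below the control with every mimic. Its log2 fold changes were -0.85 (-1.07 to -0.63), -0.57 (-0.78 to -0.35) and -1.40 (-1.66 to -1.14). Of the 14 G1/S genes tested, 3 were higher and 2 lower under miR-106b, and 3 higher and 4 lower under miR-93. At an RPKM cutoff of 2.0 the genes higher were 1 under each of these mimics, and those lower were again 2 and 4. At the cutoff of 1.0, 11.9% of all genes tested were higher and 12.7% lower under miR-106b, and 15.1% and 15.6% under miR-93. The G1/S counts under miR-106b are not far from these shares.

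For G2/M, 9 of 9 genes were higher under miR-106b and 7 of 9 under miR-93, where 11.9% and 15.1% of all genes tested were higher. The G2/M medians were 0.71 and 0.54, where Mcm2 to Mcm7 had medians of 0.08 and -0.10. Top2a, the topoisomerase II alpha gene, had 29.8, 54.5, 39.6 and 10.0 RPKM. Ccnb1, the cyclin B1 gene, had 10.4, 46.1, 36.9 and 10.2 RPKM, and was at 2.15 (1.99 to 2.31) under miR-106b and -0.03 (-0.23 to 0.17) under miR-25.

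By the Euclidean distance of its 3 log2 fold changes over cel-miR-67, the gene nearest to the median of the ring genes among 10692 genes was Dtl, at 0.0219. Dtl encodes a substrate receptor of the ubiquitin ligase that removes Cdt1 in S phase, and it had a level of 4.06 RPKM in the control library and 1.72 with miR-25. Prim1, the gene of the catalytic primase subunit, followed at 0.0913 with 41.1, 42.1, 36.3 and 17.8 RPKM. Dennd4b at 0.0981, LOC100910710 at 0.121 and AABR07006258.1 at 0.135 came next. Nearest to Mcm7 itself were LOC100910710 at 0.0797, Cenpi, a centromere protein gene, at 0.0858, AABR07052611.1 at 0.0877, Bsdc1 at 0.0878 and Prim1 at 0.107. Likeness here rests on 4 libraries, and the 3 values of a gene share the control library.

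Sequence around the start of the MCM genes is shown because the ring genes are textbook targets of E2F factors. RefSeq promoter windows on GRCr8, from 250 bases before to 50 after a start, were found for 7 of the 8 genes, Mcm4 not being among them. They were searched on both strands for TTTCCCGC, TTTCGCGC, TTTGCCGC and TTTGGCGC, octamers of the E2F consensus that can overlap each other on opposite strands. At least 1 match was present in 6 of the 7 windows, against 2.14% of 33469 promoter windows of the table and 3.77% of those of genes with deposited values. The start of a window can differ from the outer end of the gene's span given above, and stretches inside the span are named as such. Matches are in capitals below. For Mcm7 the part of the window before the span and 30 bases around the second match are shown, and for the others 30 bases that begin 3 bases before the first match.
Mcm7, chr12:22163321-22163428, minus strand, before the span: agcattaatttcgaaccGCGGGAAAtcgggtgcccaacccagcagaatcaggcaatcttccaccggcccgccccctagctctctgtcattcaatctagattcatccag
Mcm7, chr12:22163204-22163233, minus strand, inside the span: acgTTTCGCGCcaatttcggttggagagct
Mcm2, chr4:122918082-122918111, minus strand, inside the span: ggtTTTCGCGCGAAAacccgtggcagctgg
Mcm3, chr9:30733726-30733755, minus strand, 21 bases inside the span: gtgGCGGGAAAacttgggaagtTTTCGCGC
Mcm5, chr19:13488597-13488626, plus strand, before the span: aagTTTCGCGCCAAAacgtcccgcctcata
Mcm6, chr13:42404465-42404494, minus strand, before the span: gctTTTGGCGCGAAAttagcgtgtggtggg
Mcm8, chr3:140539630-140539659, plus strand, inside the span: ggcGCGCCAAAaaagaacttcgagcgaggt
In Mcm2, Mcm5 and Mcm6 matches on opposite strands overlap, Mcm3 and Mcm7 hold 2 separate matches each, and Mcm5 holds a further match outside the stretch shown. The Mcm10 window has no match. Among the genes with a single row in the table, 7 of 13 windows of the helicase activation group held a match and 4 of 6 of origin licensing. A match was present in 4 of 11 windows of G1/S E2F targets, 1 of 8 of G2/M and 1 of 2 of the other MCM-named genes. Cardiomyocyte markers, most of which were also lower with miR-25, had a match in 0 of 9. A match describes the letters of a window and not binding, and a part of E2F factors in the levels with miR-25 was not tested.

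RefSeq lists a pseudogene each for Mcm2, Mcm4 and Mcm7, none of which is a row of the table, so reads shared with these copies remain uncertain. When every library was scaled to the same RPKM sum, log2 fold changes over cel-miR-67 rose by 0.03 for miR-106b, 0.15 for miR-93 and 0.24 for miR-25. With miR-25 8 of 8 MCM genes were then still lower past 1.3-fold, Mcm2 only just, at -0.38, and under miR-106b Mcm3 no longer passed.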

How the data were processed

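RNA of 4 cultures, 1 per mimic, was sequenced as single reads. The authors used FASTQC for quality checks, Cutadapt to remove adaptors and STAR (version 2.7 in the submitters' processing notes) to align to Rnor 6.0, and turned rounded gene counts into the deposited RPKM values by means of edgeR. The program that counted reads is not given in the sources used here. The series table and the 4 sample tables held identical values.

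Whole reads were recovered from the deposited RPKM values for all 15731 genes, as the smallest whole numbers that give a gene's ratios between libraries, with a common factor restored for 654 genes. A further common multiple cannot be seen in the values and would make an interval too wide. Mcm3, with the shortest recovered length of the 8 at 1466 bases, may be such a gene. Its levels and folds would not change, but its weight in sums of reads would. The library sizes so found (22674410.152 for cel-miR-67 and 29749466.647 for miR-106b, the lowest and highest) were not whole numbers, for which no reason is given in the sources used here. Reads on listed genes came to 60.4% to 66.9% of these sizes, which need not be their share of the reads sequenced. The methods state far fewer reads per sample than these sizes. This was not resolved. For the 8 MCM genes no smaller whole numbers give the ratios between libraries. If the recovered numbers nevertheless stood for fewer separate reads, all intervals would be wider than printed. Recovery and intervals were tested on Poisson counts simulated from the recovered lengths and library sizes. Such counts cannot test the open points above or differences between cultures.

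Fold changes are ratios of RPKM without a pseudocount. Intervals are Clopper-Pearson for ratios, Poisson for levels and conditional odds ratio intervals for a gene against its partners. The members and gene lists were chosen with earlier results of these data known. Beside the members, the genes named were the 3 with the largest and the 1 with the smallest change in any mimic in the other MCM-named, licensing and activation lists, the 2 with the largest in the G1/S and G2/M lists, the 5 nearest in pattern and the 4 neighbours of Mcm7. Dbf4, Ccnb2, Ttn and Pecam1 had no single row and were left out of their lists. The tools were matplotlib 3.10.9, pandas 2.3.3, scipy 1.17.1 and numpy 2.4.6 in Python 3.11.15.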

Additional observations from a re-analysis of the deposited data

How the results depend on the processing

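With miR-25, 8 of 8 MCM genes stayed lower under each scaling, with no RPKM cutoff and at 1.5-fold; 6 were lower at 2-fold, and 6 at an RPKM cutoff of 2.0, which left Mcm8 and Mcm10 untested. Their median log2 fold change was -1.01 for libraries scaled to the same RPKM sum, -1.10 for recovered reads per listed reads and, after adding a pseudocount of 1 RPKM, -1.00. The median with miR-93 was 0.08 under both of these scalings, and that with miR-106b 0.26 with recovered reads per listed reads. Under the same scalings 0 MCM genes were lower with miR-106b. At 1.5-fold 0 were higher or lower with miR-106b and 0 higher with miR-93, and at 2-fold 0 passed in either direction with these mimics. Partners summed in RPKM and Mcm3 reads doubled, both chosen after seeing the data, gave Mcm7 against its partners over the control values between -0.22 and -0.08. Centring on the median gene tested shifted values by 0.00 to 0.01, because that median was already near 0. It therefore could not move any of the 24 log2 fold changes of MCM genes beyond counting error and checks little. At an RPKM cutoff of 2.0, 2 origin licensing and 5 helicase activation genes were lower with miR-25, since fewer genes were tested. Over all genes, without an RPKM cutoff miR-106b had 2785 higher and 2935 lower, miR-93 had 3249 and 3080, and miR-25 had 3712 and 4032. At 1.5-fold these counts were 588 and 647, 781 and 942, and 1189 and 1538, and at 2-fold 139 and 150, 192 and 289, and 360 and 561. No paired analysis was possible because each mimic has 1 library, which also leaves no replicate to leave out. Depth limits Mcm8 and Mcm10 most.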
